A study of Homo sapiens with 3 samples.

Results

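Oxidative phosphorylation is carried out in the inner mitochondrial membrane by complexes I to V. Complexes I to IV pass electrons from NADH and succinate to oxygen, and all of them but complex II pump protons. Complex V, the ATP synthase, uses the proton gradient to make ATP. Most subunits are encoded in the nucleus, translated in the cytosol and imported, while a small set of catalytic subunits is encoded by mitochondrial DNA. In kidney epithelium the pathway supplies most of the energy for transport, and many clear cell renal carcinomas, in which loss of VHL stabilizes hypoxia-inducible factors, are known for low use of it.

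The genes described here are those nuclear genes whose symbols name subunits of complexes I to V: NDUFA, NDUFB, NDUFC, NDUFS and NDUFV genes followed by a number, UQCR genes and CYC1, COX4 to COX8 genes, ATP5 genes, and the SDH genes of complex II. The rule reads names and no measured value. It found 83 genes among the 18239 genes with a probe set of their own, represented by 186 probe sets, and no pseudogene was counted. A further 10 probe sets that carry such a symbol are annotated to several genes and name none here. Of the 83 genes 78 passed a filter on low signal, which asked that the highest of the 3 array values reach 4.88, the median of all values in the table, and these were 34 genes of complex I, 3 of complex II, 9 of complex III, 13 of complex IV and 19 of complex V. The filter left 11653 genes in all. The 5 members under it were COX4I2, COX7A1, COX7B2, COX8C and NDUFA13. ATP5MGL passed through its DRB value alone, so the filter favoured a higher value with DRB for this gene. It is counted in every total of members below.

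Messenger RNA was measured in A498, an established epithelial line from a human kidney carcinoma that lacks functional VHL. There was 1 array for a culture that received E. coli 83972, a bladder isolate carried by its host with no symptoms, 1 array for a culture with 60 µM DRB, a nucleoside analogue that inhibits CDK9 and with it the elongation step of RNA polymerase II, and 1 array for a control culture with 0.08% DMSO. All 3 were confluent layers moved to serum-free medium with gentamicin, and RNA was taken after 4 h. The labels name DMSO for the control culture only, disagree on the bacterial concentration, so that none is given here, and number all 3 as experiment 2. With 1 array per group no difference could be tested, no p-value is given, and each difference compares single arrays. Each level below is a log2 value deposited by the authors, for the brightest probe set of the gene, and differences subtract one array's log2 value from another's. Levels of different genes are not comparable, since each probe set has its own brightness.

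The arrays had medians between 4.87 and 4.90. All 7 measured genes that mark the line were kept, among them KRT18 at 11.55, 11.67 and 11.63 on the E. coli 83972, DRB and control arrays. They were not all steady: PAX8 differed by −0.98 with DRB, KRT8 by −0.44 with E. coli 83972, and LRP2 by 0.46 and EPAS1 by 0.39 with DRB. LRP2 passed the filter through the DRB array alone (4.90, against 4.44 in the control), so its difference lies near the filter level. Of markers of other cell types, 2 of 4 for leukocytes (CD3E and LCP1, through the DRB array alone), 2 of 5 for endothelium (PECAM1 and VWF, between 5.37 and 5.60) and 1 of 4 for fibroblasts (COL1A1) passed the filter, while PTPRC and CDH5 did not. Their part in the results was not tested. The difference between the 3′ and 5′ probe sets for beta-actin, a measure of RNA quality, was 2.00 for E. coli 83972, 1.83 for DRB and 1.98 for control. Poly-A spike-in probe sets, which report RNA added in fixed amounts, were higher than on the control array by a median of 0.13 with E. coli 83972 and of 0.65 with DRB (27 probe sets). RMA brings the arrays to nearly one distribution, so a change shared by most transcripts is removed, and the differences below are relative to the other transcripts of the same array.

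With E. coli 83972 the subunit genes were slightly lower than on the control array across all 5 complexes. Of 78 genes 72 were below 0, against 54.7% of all 11653 genes, and the median difference was −0.16, a level 10.3% lower, against −0.03 for all genes. The differences ran from −0.50 for NDUFA5 to 0.08 for UQCRC1. Differences of 0.32 or more in size, which are levels at least 25% higher or 20% lower, were counted. There were 12 members lower by that much and 0 higher, against 12% and 11.5% of all genes, and 0 were 2-fold different, against 0.652% lower and 1.91% higher over all genes. The count lower by 0.32 or more, 12 of 78 members, was therefore near the background, while the count higher, 0 of 78, was under the 11.5% of all genes. Most members had small differences in one direction. In a culture lysed whole, fewer cells with a transcript and less of it per cell cannot be told apart.

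With DRB the same genes stood slightly higher than on the control array. Of 78 members 75 were above 0, against 55.8% of all genes, with a median of 0.14, a level 10.1% higher, against 0.05 for all genes. Differences ran from −0.41 for NDUFV3 to 0.51 for NDUFV1. Here 8 members were higher by 0.32 or more and 1 was lower by that much, against 15.4% and 25.8% of all genes, and 0 were 2-fold lower, against 10.2% of all genes. Set against the poly-A spike-ins, however, the sign of this shift turned. With each array centred on their median the members' median was −0.73 (−0.82 for all genes), with 0 members higher by 0.32 and 78 lower (0.0515% and 97.4% of all genes), and with the median of the spike-ins' own differences it was −0.51 (−0.60 for all genes). Such centring takes the same amount from every gene, so it leaves the distance between the members and the other genes as it was.

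The comparison of the treated arrays with each other does not use the control array, which both comparisons above share. E. coli 83972 was below DRB in 77 of 78 members, against 57.3% of all genes, and above it in 1 (42.6% of all genes), with a median of −0.29 against −0.07. Of the members 31 were lower by 0.32 or more and 0 were higher, against 22.6% and 26.4% of all genes. Centring on the poly-A spike-ins moved every gene alike and gave 0 members lower and 68 higher, against 0.129% and 93% of all genes, whose median was then 0.80 (0.59 for the members). The gene above 0 was NDUFV3 at 0.12.

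**Figure D1:**
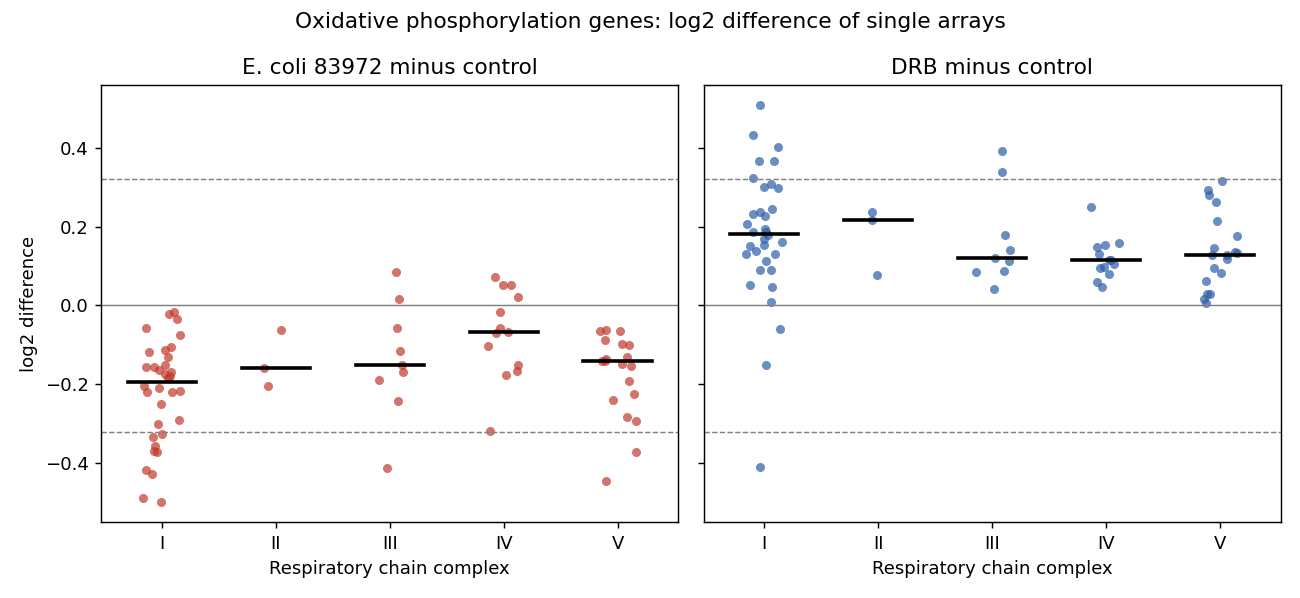
Log2 difference of the 78 kept members by complex, E. coli 83972 minus control at left and DRB minus control at right; each point is 1 gene, black bars are medians and dashed lines mark 0.32 in either direction. The medians with E. coli 83972 lie between −0.19 (complex I) and −0.07 (complex IV), and those with DRB between 0.11 (complex IV) and 0.22 (complex II).

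Probe sets of one gene give the only measure of error at hand, which is technical, lies within the same arrays and holds no variation between cultures. For the 44 members with several kept probe sets, the spread (SD) was taken between the brightest kept probe set and the next brightest. It was 0.06 for the E. coli 83972 comparison and 0.05 for that of DRB, as robust estimates (0.09 in both as plain estimates). The SD over all kept probe sets of a gene could be larger, and reached 0.37 for NDUFS8 with E. coli 83972 and 0.34 for ATP5MK with DRB. Over all 6317 genes with several kept probe sets the spread between the brightest and the next brightest was 0.12 and 0.15 (plain estimates 0.18 and 0.32). Whether the shifts exceed the variation between cultures could not be assessed. Of the 44 genes 34 had all kept probe sets below 0 with E. coli 83972, and 41 had all kept probe sets above 0 with DRB. The matching shares over the 6317 genes were not counted, so these counts have no background beside them.

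From a level of 7 upward, the members' median with DRB was smaller in each higher range of level. With E. coli 83972 the order was not strict. The members' medians were −0.17 at 9 to 10 and −0.19 at 10 to 11, against −0.09 and −0.08 for all genes there. Members with a mean level of 7 to 9 gave −0.30 in E. coli 83972 and 0.26 in DRB as medians (9 members), against −0.05 and −0.04 for the 3643 genes of that range. Members at 11 or above had −0.12 and 0.11 (29 members), against −0.04 and 0.04 for 516 genes. The 3 members under 7 went against this order, with medians of 0.05 and 0.13. Within a gene with DRB, the dimmest kept probe set had the larger value in 33 of 44 genes, with a median of 0.20 against 0.13 for the brightest. With E. coli 83972 the dimmest was the lower in 26 of 44 (−0.12 against −0.13). UQCRB, which anchors part of the complex III core, is an example: its brightest probe set gave 0.12 with DRB and the mean over its 3 kept probe sets was 0.44 ± 0.28 (SD). The dimmest of these (4.39 with E. coli 83972 and 5.30 with DRB, against 4.71) passed the filter through the DRB array alone. The filter thus favoured its higher value with DRB, and it is among the 33. How many other dimmest probe sets passed in this way was not counted. The part of signal saturation in the small size of these differences was not tested.

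**Figure D2:**
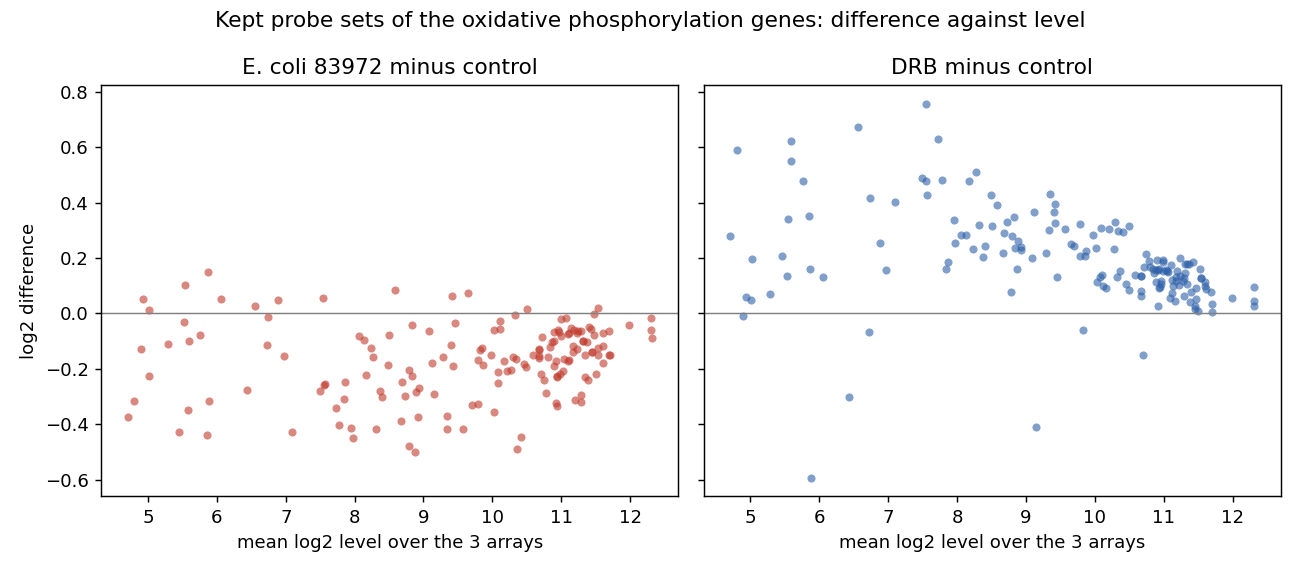
Log2 difference of each of the 161 kept probe sets of the members against its mean log2 level over the 3 arrays, E. coli 83972 minus control at left and DRB minus control at right; each point is 1 probe set. Points at right, above a level of 11, lie closer to 0 than those between 7 and 9.

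Promoters of these genes are known for sites of NRF1, of ETS-family factors such as GABP, and of YY1. RefSeq promoter sequences (GRCh38.p14, 250 bases before to 50 bases after a gene's start) were at hand for 67 of the 83 genes. The letters GCATGCGC, the core of the NRF1 site, stood on either strand in the promoters of 13 of 67 genes (19.4%), against 3.68% of 27305 genes of all kinds in the same table. CCGGAAG, an ETS core, stood in 20 (29.9%), against 12.2%, and AAGATGGCG, a YY1 core, in 8 (11.9%), against 2.14%. CCGGAAG and AAGATGGCG can share the letters AAG, so a stretch can count for both. At least 1 of the 3 motifs stood in 33 genes (49.3%), and the matching share of all genes was not counted. The 27305 genes were not limited to those kept on these arrays. A match of letters is a description and shows no binding. Kept members with a match had medians of −0.17 with E. coli 83972 and 0.13 with DRB (32 genes), and those with none had −0.15 and 0.15 (32 genes).

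The 140 bases before the start of 6 members show the range, 4 with motifs and 2, NDUFV1 and NDUFV3, with the highest and the lowest difference with DRB and none of the 3 in this stretch. They are written 5′ to 3′ on the strand of the gene, with motifs in capitals. SDHD (chr11:112086733-112086872, plus strand) holds a full palindromic NRF1 site and an ETS core, COX5B (chr2:97645922-97646061, plus strand) both cores, NDUFS7 (chr19:1383767-1383906, plus strand) an NRF1 core and NDUFB7 (chr19:14572067-14572206, minus strand) an ETS core. NDUFV1 lies at chr11:67606796-67606935 (plus strand) and NDUFV3 at chr21:42893169-42893308 (plus strand).
SDHD: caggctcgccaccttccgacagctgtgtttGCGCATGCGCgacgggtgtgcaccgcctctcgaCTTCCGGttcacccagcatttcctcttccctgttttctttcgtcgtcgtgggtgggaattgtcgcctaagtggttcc
COX5B: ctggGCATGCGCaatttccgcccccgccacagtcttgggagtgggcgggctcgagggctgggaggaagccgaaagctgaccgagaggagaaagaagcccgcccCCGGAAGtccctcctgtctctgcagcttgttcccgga
NDUFS7: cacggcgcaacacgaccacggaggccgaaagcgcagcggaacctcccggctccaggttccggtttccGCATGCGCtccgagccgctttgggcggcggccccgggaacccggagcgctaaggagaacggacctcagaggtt
NDUFB7: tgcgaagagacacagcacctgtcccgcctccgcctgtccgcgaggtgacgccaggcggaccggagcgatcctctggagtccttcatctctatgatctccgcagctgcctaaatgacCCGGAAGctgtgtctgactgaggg
NDUFV1: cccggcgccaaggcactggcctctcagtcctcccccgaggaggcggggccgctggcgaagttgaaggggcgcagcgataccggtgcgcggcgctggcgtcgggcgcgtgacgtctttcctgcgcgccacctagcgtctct
NDUFV3: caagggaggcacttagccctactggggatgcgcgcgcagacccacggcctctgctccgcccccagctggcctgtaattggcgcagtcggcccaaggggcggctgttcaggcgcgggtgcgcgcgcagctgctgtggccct

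Complex I, the NADH dehydrogenase, had the lowest median of the 5 complexes with E. coli 83972. All 34 of its kept members were below 0, with a median of −0.19, and 9 of the 34 were lower by 0.32 or more (12% of all genes), out of 12 among all 78 members. With DRB 31 of 34 were above 0, with a median of 0.18. NDUFA5, a supernumerary subunit of the peripheral arm, read 8.48 with E. coli 83972 and 9.14 with DRB, against 8.98 in the control, so it was lowest with the bacterium, 1.41-fold under control. NDUFB8, a subunit of the membrane arm, read 9.98 and 10.62, against 10.47, or 1.40-fold lower with E. coli 83972.

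The core subunits of the hydrophilic arm carry the flavin and the iron-sulfur clusters through which electrons reach ubiquinone. The 6 measured ones were all below 0 with E. coli 83972 (median −0.16), and 5 of 6 were above 0 with DRB (0.18). NDUFV1, which binds NADH and the flavin, read 7.997 with E. coli 83972 and 8.66 with DRB, against 8.15 in the control, and its DRB difference of 0.51 (1.42-fold) was the highest of all members. NDUFS7, which holds the last cluster before ubiquinone, read 8.87 and 9.42, against 9.06, and was also past 0.32 with DRB (0.37, mean of 3 probe sets 0.36 ± 0.07). NDUFS8 read 8.60 and 9.21, against 8.97. Its brightest probe set was lower with E. coli 83972 (−0.37) while a dimmer one went the other way, so that the mean was −0.11 ± 0.37 (SD, 2 probe sets) and the direction of this gene is uncertain.

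On the brightest probe sets the other 3 core subunits differed less with DRB than NDUFV1, NDUFS7 and NDUFS8. This order did not hold with E. coli 83972, where NDUFS3 gave −0.17 and NDUFV1 −0.16. Nor did it hold for means over kept probe sets with DRB, which were 0.31 for NDUFS1 and 0.20 for NDUFS8. NDUFS1, the largest iron-sulfur subunit, read 9.39 and 9.55, against 9.42 in the control, NDUFS3 read 10.02 and 10.28, against 10.19, and NDUFV2 read 9.75 and 9.83, against 9.89. NDUFS1 thus lay within 0.13 of control on the brightest of 5 probe sets, whose mean was −0.12 ± 0.13 with E. coli 83972 and 0.31 ± 0.19 with DRB. NDUFV2 was 1 of 3 members below 0 with DRB (−0.06), and with E. coli 83972 it gave −0.13.

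The NDUFB subunits, which lie in the distal membrane arm, were below 0 with E. coli 83972 in 11 of 11 and above 0 with DRB in 11 of 11. NDUFB7 read 8.96 and 9.76, against 9.33, and passed 0.32 on both arrays, in opposite directions (−0.37 and 0.43). NDUFB1 (−0.33) and NDUFB4 (−0.33) passed with E. coli 83972, just inside the limit, and NDUFB11 passed with DRB (0.37, mean of 2 probe sets 0.34 ± 0.04). At the other end NDUFB6 differed by −0.02 with E. coli 83972 (10.91 against 10.94).

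Among the remaining supernumerary subunits of complex I, 17 of 17 were below 0 with E. coli 83972, with a median of −0.22. NDUFA10, a subunit of the membrane arm, read 6.68 with E. coli 83972 and 7.51 with DRB, against 7.11, and was likewise past 0.32 on both (−0.43 and 0.40). NDUFA2 (−0.42) and NDUFC2 (−0.36; mean of 2 probe sets −0.23 ± 0.18) passed with E. coli 83972, and NDUFA7 (0.32) passed just inside the limit with DRB. NDUFA11 was closest to control with the bacterium at −0.02. NDUFA8, a subunit of the intermembrane space side, was below control on both treated arrays (10.60 and 10.67, against 10.82). NDUFA13, the one complex I gene under the filter level, read 4.00 and 4.03, against 4.03.

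NDUFV3 stood apart from the other complex I genes on the DRB array. This small subunit of the NADH-binding end, made in a long and a short isoform, read 9.09 with E. coli 83972 and 8.97 with DRB, against 9.38 in the control. It was lower on both treated arrays, by 1.22-fold and 1.33-fold, and all 3 of its kept probe sets were below 0 in each comparison (means −0.29 ± 0.02 with E. coli 83972 and −0.43 ± 0.15 with DRB). No other member was lower by 0.32 with DRB.

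**Figure D3:**
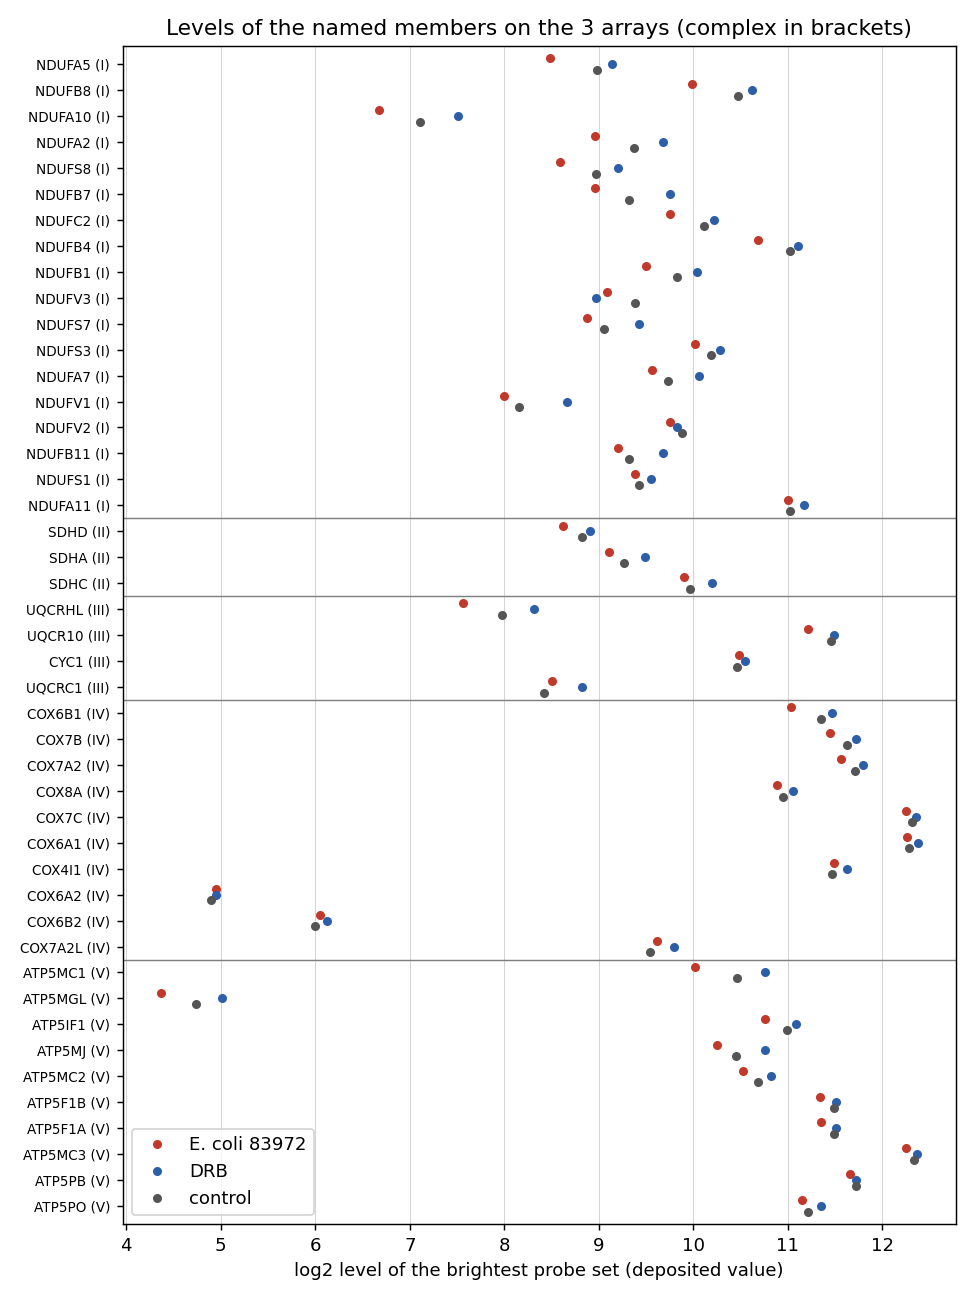
Deposited log2 level of the brightest probe set of 45 named members on the E. coli 83972, DRB and control arrays, grouped by complex; each point is 1 array. For most genes the E. coli 83972 point is leftmost and the DRB point rightmost, and NDUFV3 is an exception, with its DRB point at the left.

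Complex II, succinate dehydrogenase, also belongs to the tricarboxylic acid cycle and has no mitochondrially encoded subunit. SDHA, the flavoprotein, read 9.11 with E. coli 83972 and 9.49 with DRB, against 9.27 in the control. SDHC, a membrane anchor, read 9.90 and 10.20, against 9.96, and SDHD, the other anchor, read 8.62 and 8.90, against 8.83. All 3 genes were below control with E. coli 83972 (−0.16, −0.06 and −0.20) and above it with DRB (0.22, 0.24 and 0.08), with 0 past 0.32. Over its 5 probe sets SDHC averaged −0.10 ± 0.09 for E. coli 83972 against control, and 0.36 ± 0.19 for DRB. SDHD, also with 5, averaged −0.27 ± 0.10 for the bacterium and 0.18 ± 0.09 for DRB.

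Complex III, the cytochrome bc1 complex, had a median of −0.15 with E. coli 83972 and 0.12 with DRB. On the brightest probe sets its 3 measured catalytic and core genes had a median of 0.02 with E. coli 83972 and the 6 small subunits one of −0.18, but other probe sets of these genes did not keep to that order. CYC1, which encodes cytochrome c1, read 10.48 with E. coli 83972 and 10.55 with DRB, against 10.46. The core protein gene UQCRC1 read 8.51 and 8.82, against 8.43, and with UQCRHL was past 0.32 with DRB (0.39, mean of 2 probe sets 0.41 ± 0.02). UQCRC2 gave −0.06 and 0.14 on its brightest probe set, and its mean with E. coli 83972 over 2 probe sets was −0.17 ± 0.16.

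Of the small subunits, UQCR10 read 11.21 with E. coli 83972 and 11.49 with DRB, against 11.45. The probe set of UQCRHL, a gene closely related to the hinge protein gene UQCRH, read 7.56 and 8.31, against 7.98, and passed 0.32 on both arrays (−0.41 and 0.34). UQCRH itself gave −0.15 and 0.18 on its brightest probe set, with a mean of −0.052 ± 0.14 over 2 probe sets with E. coli 83972. The pair are near-identical copies, so the probe set of either may report both, and the difference between them is uncertain.

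Complex IV, cytochrome c oxidase, takes its catalytic subunits from mitochondrial DNA, and the nuclear subunits measured here surround them. It showed the smallest shift with E. coli 83972, with a median of −0.07 and 9 of 13 members below 0, and with DRB 13 of 13 were above 0, with a median of 0.11. None of the 13 passed 0.32 in either comparison with control. COX6B1, which faces the intermembrane space, was lowest with the bacterium, at 11.03 with E. coli 83972 and 11.47 with DRB, against 11.35, and lay just under the limit (−0.319). COX7A2L, a factor that joins complexes III and IV in supercomplexes, was highest in both comparisons, with 9.61 and 9.79, against 9.54.

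Several subunits of complex IV exist as isoforms of separate genes. COX4I1, the general isoform, read 11.49 with E. coli 83972 and 11.63 with DRB, against 11.47, while COX4I2, an isoform known to be induced by hypoxia in some tissues, read 4.34, 4.44 and 4.09 and was under the filter level on all 3 arrays. COX6A1 read 12.26 and 12.37, against 12.28, and COX7A2 read 11.56 and 11.79, against 11.71. Of the muscle isoforms, COX6A2 (4.95 and 4.95, against 4.89) lay just above the filter level on all 3 arrays and COX7A1 (3.67 and 3.56, against 3.55) under it. COX7B read 11.45 and 11.72, against 11.63, and COX8A read 10.88 and 11.06, against 10.95, with COX7B2 and COX8C at 3.16 to 3.39 on every array. COX6B2, a testis isoform, read 6.05 and 6.13, against 6.00, and COX7C, the lowest of complex IV with DRB, gave 0.05. The general isoforms were all above the filter level, and of the tissue-restricted ones 2 of 6 reached it, with no kept isoform past 0.32.

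The rule reads current symbols, so COXFA4, formerly NDUFA4 and now placed in complex IV, is not among the 83 genes. It read 12.11 with E. coli 83972 and 12.20 with DRB, against 12.15. Its relative COXFA4L2, a hypoxia-inducible factor target known as NDUFA4L2, read 4.79 and 5.07, against 4.68, near the filter level. COXFA4L3, whose small protein can replace COXFA4 in complex IV during inflammation, read 9.24 and 8.82, against 8.15, on its only probe set. It was 2.12-fold higher with E. coli 83972 and 1.59-fold higher with DRB, and was looked up after the values of the other genes had been seen.

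Complex V consists of the F1 head, in which ATP is made, a c-ring in the membrane, and a peripheral stalk that holds the head in place. All 19 members were below 0 with E. coli 83972 (median −0.14) and above 0 with DRB (0.13), with 2 past 0.32 with the bacterium and 0 with DRB. Both the 19 and the 2 include ATP5MGL, which passed the filter through its DRB value alone. Of the head subunits that form the catalytic sites, ATP5F1A read 11.36 with E. coli 83972 and 11.51 with DRB, against 11.49 in the control, and ATP5F1B read 11.35 and 11.51, against 11.49. On these probe sets both differed by −0.14 with E. coli 83972 and lay within 0.03 of control with DRB. Over its 4 probe sets ATP5F1A averaged −0.22 ± 0.14 for the bacterium and 0.13 ± 0.11 for DRB. ATP5PB of the peripheral stalk was the lowest with DRB on its brightest probe set (0.01), though its 4 probe sets averaged 0.16 ± 0.15, and −0.27 ± 0.19 for E. coli 83972. On the brightest probe sets ATP5PO, the stalk subunit that binds the head, was the highest with E. coli 83972 (−0.06).

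The c-ring is encoded by 3 genes that give the same mature protein, and their differences were of unequal size. ATP5MC1 read 10.02 with E. coli 83972 and 10.76 with DRB, against 10.46, and had the lowest difference of the complex with the bacterium (−0.45, 1.36-fold lower). ATP5MC2 read 10.53 and 10.82, against 10.68, and ATP5MC3 read 12.25 and 12.36, against 12.34. The single probe sets of ATP5MC1 and ATP5MC2 differed from control by −0.45 and −0.15 with E. coli 83972, and the 4 probe sets of ATP5MC3 by −0.14 ± 0.10. With DRB the 4 probe sets of ATP5MC3 averaged 0.15 ± 0.23. The part of signal level in these unequal sizes was not tested.

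Of the other membrane subunits ATP5MJ was highest with DRB (10.26 and 10.76, against 10.45), just under the limit at 0.31. ATP5MGL, the probe set of which read 4.36 and 5.01, against 4.73, passed the filter through its DRB value alone, so its difference of −0.37 with E. coli 83972 lies between values under the filter level. ATP5IF1, the inhibitor that blocks ATP hydrolysis by the synthase, read 10.76 and 11.08, against 10.99. Its 4 kept probe sets agreed on a lower value with E. coli 83972 (mean −0.23 ± 0.05).

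Assembly factors build the complexes without being part of them. Of 57 measured assembly factors 55 were kept. With DRB 0 of the 78 subunits were at least 2-fold lower, against 6 of the 55 assembly factors and 10.2% of all genes, so that the assembly factors were near the background. The 6 were TMEM186 (−1.89), which helps to assemble complex I, TMEM70 (−1.02), which serves complexes I and V, and FASTKD3 (−1.60), SCO2 (−1.37), COX19 (−1.12) and COA7 (−1.01), which serve complex IV. TMEM186 read 6.64 with E. coli 83972 and 5.06 with DRB, against 6.95 in the control, and SCO2, a copper chaperone, read 7.60 and 6.20, against 7.57. The median of the assembly factors with DRB was nevertheless 0.12, close to that of the subunits, with ECSIT the highest at 0.50. With E. coli 83972 44 of 55 were below 0, with a median of −0.17, led by COA7 (−0.79), and NDUFAF4 was the highest at 0.35.

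A further list joined regulators of nuclear mitochondrial genes with TFAM, TFB1M, TFB2M and POLRMT, which serve the transcription of mitochondrial DNA. Of its 15 measured genes 12 were kept. With DRB 10 of 12 were below 0, against 44.2% of all genes, with a median of −0.36, and 3 were at least 2-fold lower, against 10.2% of all genes. CREB1, a cAMP-responsive activator, read 8.59 with E. coli 83972 and 6.60 with DRB, against 8.07. PPRC1, a coactivator of the PGC-1 family, read 7.69 and 5.86, against 7.15, and TFB2M, an initiation factor for mitochondrial DNA, was lower with DRB by a log2 difference of −1.05. With E. coli 83972 the genes of this list were split, 5 below 0 (54.7% of all genes) and 7 above, with a median of 0.10. PPRC1 was highest (0.53) and POLRMT, the mitochondrial RNA polymerase, lowest (−0.19). NRF1 itself, with PPARGC1A and PPARGC1B, was under the filter level, and POLRMT was the highest with DRB (0.22).

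**Figure D4:**
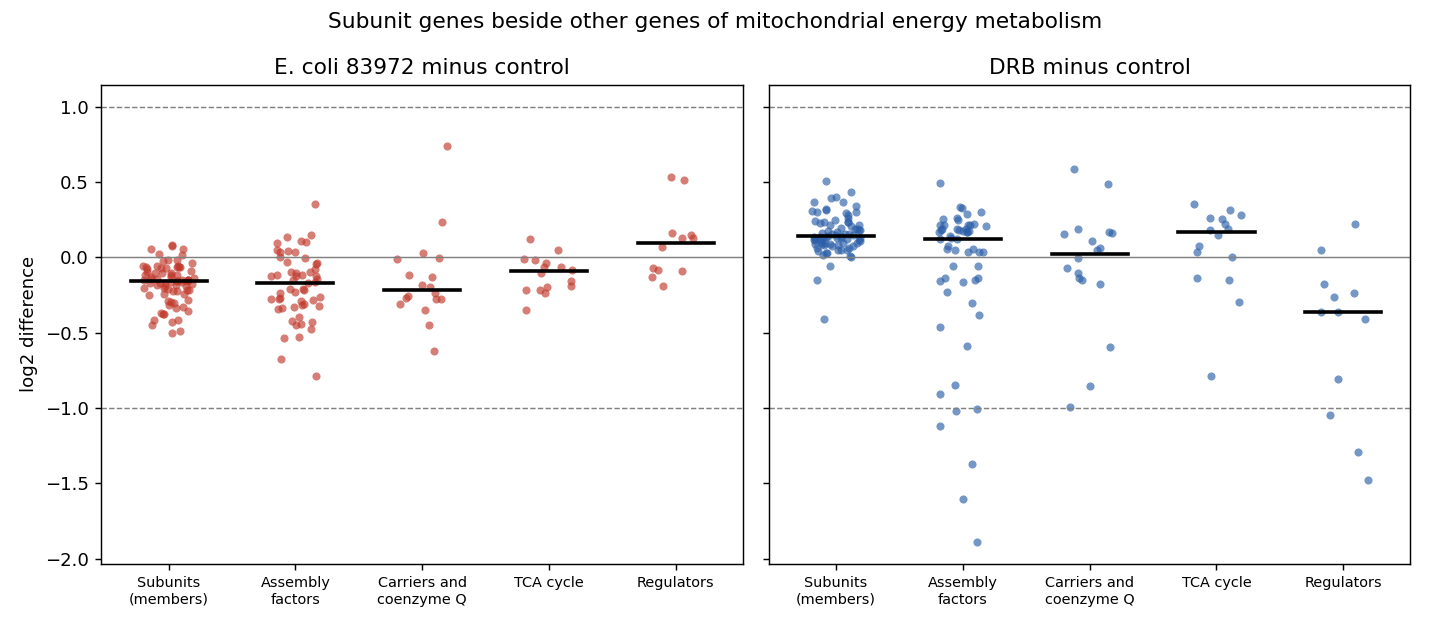
Log2 difference of kept genes in 5 lists, E. coli 83972 minus control at left and DRB minus control at right. The lists are the 78 subunits, 55 assembly factors and 18 genes of electron carriers and coenzyme Q synthesis, with NDUFAB1. The others are 16 genes of the tricarboxylic acid (TCA) cycle and pyruvate dehydrogenase complex and 12 regulators, which include factors for mitochondrial DNA. Each point is 1 gene, black bars are medians and dashed lines mark 2-fold. The subunits span −0.50 to 0.51, while assembly factors reach −1.89 and regulators −1.48 with DRB.

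Electron carriers and coenzyme Q genes, listed together with the complex I gene NDUFAB1, gave a median of −0.22 with E. coli 83972 and 0.02 with DRB over 18 kept genes. COQ10B, which binds coenzyme Q, read 10.03 with E. coli 83972 and 8.44 with DRB, against 9.29, and was the highest of the list with the bacterium (0.74). COQ8A was the lowest there (−0.62), and with DRB COQ10A (−0.99) and PDSS2 (0.59) were the extremes. Genes of the tricarboxylic acid cycle and of the pyruvate dehydrogenase complex, which feed the chain with NADH, had medians of −0.09 and 0.17 over 16 kept genes. They ran from IDH2 (−0.35) to DLD (0.12) with E. coli 83972 and from PDHX (−0.78) to SUCLG2 (0.36) with DRB. PDHX belongs to the pyruvate dehydrogenase complex, as do DLAT (−0.29 with DRB), PDHB (−0.15) and PDHA1 (0.22).

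Other large complexes made of many small, abundant transcripts give a scale for these shifts. Cytosolic ribosomal protein genes had medians of −0.03 with E. coli 83972 and 0.05 with DRB (73 kept), mitochondrial ribosomal protein genes −0.16 and −0.06 (76 kept), and proteasome genes −0.09 and 0.02 (33 kept). The subunit genes, at −0.16 and 0.14, thus lay at the level of the mitochondrial ribosomal protein genes with E. coli 83972 and above all 3 with DRB. These lists share the arrays, and no test of their differences was possible.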

How the data were processed

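The probe-set values deposited by the authors are on a log2 scale and, per the submitters' processing notes, were made with RMA and Partek. The sources used here give no versions and do not say how many arrays RMA took in 1 run. Per the labels, amplified RNA was labelled with biotin by a 3′ protocol. The table held 49386 probe sets, of which 45259 had 1 gene in the platform annotation and 1327 several. Entrez identifiers matched a RefSeq table (GRCh38.p14) for 45178 probe sets and changed 0 symbols.

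The probe set of highest mean stood for a gene, which was kept when its highest value reached 4.88. Calls used log2 differences of 0.32 and 1. No test across cultures was possible with 1 array per group, and the number of arrays limits precision. Means ± SD are over the kept probe sets of a gene. Members, lists and thresholds were chosen with earlier results of these data known. Named are the extremes of each complex and list, core subunits, isoforms and members past 0.32, and any other gene is an example picked after its values were seen. EMC8 and DMAC2L, which only their older symbols would bring under the rule, were left out. Calculations used Python 3.11.15, pandas 2.3.3 and statsmodels 0.14.6, and were tested on simulated data. Alternatives are given in the closing section.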

Additional observations from a re-analysis of the deposited data

How the results depend on the processing

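No paired analysis was possible because each group has 1 array; leaving out a replicate was not possible either. The E. coli 83972 median of −0.16 stayed below 0 under every alternative tried. It was −0.28 with centring on all spike-ins (27 members lower by 0.32 or more), −0.49 on hybridization spike-ins (72 lower) and −0.29 on the median poly-A spike-in difference (27 lower), the last chosen after seeing the data. The 12 members lower became 7 with loess correction and 4 of 16 members with plain-suffix probe sets only. 

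The DRB median of 0.14 was −0.56, −0.73 and −0.091 with centring on all, poly-A and hybridization spike-ins and −0.51 on the median poly-A difference. The 8 members higher became 0 under each of these 4 centrings, 2 with loess and 15 with the mean over probe sets. They became 17 with the dimmest kept probe set (added after seeing the data) and 3 of 16 members with plain-suffix probe sets. The dimmest kept probe set of UQCRB passed the filter through the DRB array alone. The 1 lower became 74, 78, 2 and 71 under the centrings and 0 of 16 members with plain-suffix probe sets. For complexes I to V the DRB medians were −0.51, −0.48, −0.58, −0.58 and −0.57 on all spike-ins, −0.69, −0.66, −0.75, −0.76 and −0.74 on poly-A, and −0.049, −0.014, −0.11, −0.12 and −0.10 on hybridization spike-ins. The members past 0.32 with DRB turned with them: on all spike-ins and on poly-A, NDUFA7 was −0.37 and −0.55, NDUFA10 −0.29 and −0.47, NDUFB7 −0.26 and −0.44, NDUFB11 −0.33 and −0.51, NDUFS7 −0.33 and −0.51, NDUFV1 −0.19 and −0.36, UQCRC1 −0.30 and −0.48 and UQCRHL −0.36 and −0.54. Centring shifts all genes alike: the median of all genes with DRB was −0.64, −0.82 and −0.18, and −0.15, −0.02 and −0.36 with E. coli 83972.

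For E. coli 83972 minus DRB the median of −0.29 was 0.29 on all spike-ins, 0.59 on poly-A and 0.21 on the median poly-A difference, with 30, 68 and 17 members higher in place of 0. The 31 lower became 0, 0 and 1, 52 on hybridization spike-ins, 16 with loess and 9 of 16 members with plain-suffix probe sets. By complex, I to V, the medians were 0.15, 0.27, 0.28, 0.39 and 0.29 on all spike-ins and 0.46, 0.58, 0.59, 0.70 and 0.60 on poly-A. NDUFS8 with E. coli 83972 was 0.15 with its dimmest probe set. Reading the rule on the current or the platform symbol alone changed nothing, and could not, since 0 symbols differed between them. Counts of members below or above 0 were not recomputed under the alternatives. With loess correction ATP5F1A (−0.04) and ATP5F1B (−0.02) fell below 0 with DRB, and the median of all genes was −0.06. Beyond the centrings the cause of these changes was not tested.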
